A study of Mus musculus with 6 samples.

Results

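Nuclear genes for the subunits of oxidative phosphorylation were followed in mouse pancreatic tumor cells from treated and control tumors. The members were picked by symbol: complex I genes starting with Ndufa, Ndufb, Ndufc, Ndufs or Ndufv and a digit, the succinate dehydrogenase genes Sdha to Sdhd, all Uqcr genes of complex III, the Cox4 to Cox8 genes of complex IV, the Atp5 genes of complex V, and Cycs for cytochrome c. Among the 24493 genes listed, 84 symbols matched, and 78 of these averaged at least 1 TPM (a relative level that is already divided by transcript length and scaled to the library) over the 6 libraries. The member nearest above that limit was Cox8b at 2.26 TPM, and the nearest below were Ndufa4l2 at 0.881 TPM and Cox4i2 at 0.49 TPM. Complex I held 35 members, complex II 4, complex III 8, complex IV 14 and complex V 15. Cytochrome c made 1 more, and Atp5s, which carries a synthase name but is no subunit, another. Ndufa4 was counted with complex IV, where its protein sits despite its name.

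All 6 bulk RNA libraries came from cells of the line titled 6419c5, sorted out of tumors implanted subcutaneously in C57BL/6 mice. Control tumors gave 4 libraries and tumors under the regimen called GAFCP gave 2, and that regimen joined gemcitabine and abraxane (chemotherapy) to a CD40 agonist with PD-1 blockade and CTLA-4 blockade. The line 6419c5 is known as a single tumor cell clone, so the groups speak for 1 clone. The labels give no dose, time, animal age, sort gate or link between libraries and animals, and p-values therefore reflect no more than library-to-library spread, possibly a technical one. Depth is unknown because TPM keeps none.

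Oxidative phosphorylation runs in the inner mitochondrial membrane. Complexes I and II pass electrons from NADH and succinate to ubiquinone, complex III hands them to cytochrome c, and complex IV hands them to oxygen. Complexes I, III and IV pump protons, and complex V lets the protons back to make ATP. Core subunits of every complex but complex II are also encoded in mitochondrial DNA. Those 13 genes are not analysed here, and the values cover the nuclear side alone.

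Promoters of such genes are known for sites of the factors NRF1, GABPA (an ETS factor) and YY1, and RefSeq windows of 250 bases before to 50 bases after the start (GRCm38.p6) were matched for 65 of the 78 members. Motif letters were searched on both strands, as GCGC, any base and TGCGC for NRF1, CCGGAAGT for ETS factors and AAGATGGC for YY1, with no overlap between motifs required or barred. The NRF1 letters stood in 17 of 65 member promoters (26.2%), in 11% of promoters of the genes tested and in 5.2% of those of all 27025 genes with a window. The YY1 letters stood in 9 members (13.8%, against 5.1% of the genes tested and 3.2% of all), and the ETS letters in 5 (7.7%, against 8.9% and 4.3%). NRF1 letters were in 8 of 36 matched members that fell with GAFCP and in 9 of the 29 others, counts given with no test. To show what such a promoter looks like, the 250 bases before the start are printed for 3 members that fell and hold NRF1 letters, with the matches in capitals, and for Ndufa4 and AA467197, 2 relatives whose levels changed in opposite directions. All are written 5′ to 3′ on the gene's strand. Sdha lies at chr13:74350241-74350490 (minus strand), Cox6a1 at chr5:115348959-115349208 (minus), Atp5c1 at chr2:10080433-10080682 (minus), Ndufa4 at chr6:11907451-11907700 (minus) and AA467197 at chr2:122637637-122637886 (plus).
Sdha: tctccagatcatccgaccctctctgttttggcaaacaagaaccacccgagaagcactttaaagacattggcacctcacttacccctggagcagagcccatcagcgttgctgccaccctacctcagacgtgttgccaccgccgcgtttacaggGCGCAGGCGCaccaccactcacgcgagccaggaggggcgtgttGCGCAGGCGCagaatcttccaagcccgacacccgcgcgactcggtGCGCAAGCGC
Cox6a1: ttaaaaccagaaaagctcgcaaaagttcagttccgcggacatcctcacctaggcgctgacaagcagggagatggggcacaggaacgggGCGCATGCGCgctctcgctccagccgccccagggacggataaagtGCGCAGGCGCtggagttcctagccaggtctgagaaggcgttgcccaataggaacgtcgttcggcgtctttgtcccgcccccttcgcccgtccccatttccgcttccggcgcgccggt
Atp5c1: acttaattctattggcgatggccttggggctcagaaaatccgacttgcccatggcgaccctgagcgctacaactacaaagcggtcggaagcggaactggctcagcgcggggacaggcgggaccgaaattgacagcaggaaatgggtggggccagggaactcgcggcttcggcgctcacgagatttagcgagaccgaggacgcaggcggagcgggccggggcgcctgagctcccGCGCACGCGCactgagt
Ndufa4: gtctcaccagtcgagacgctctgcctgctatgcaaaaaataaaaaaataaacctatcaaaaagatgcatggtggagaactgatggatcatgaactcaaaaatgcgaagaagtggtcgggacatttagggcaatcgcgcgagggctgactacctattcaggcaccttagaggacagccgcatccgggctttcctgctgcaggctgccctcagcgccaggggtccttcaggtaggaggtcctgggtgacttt
AA467197: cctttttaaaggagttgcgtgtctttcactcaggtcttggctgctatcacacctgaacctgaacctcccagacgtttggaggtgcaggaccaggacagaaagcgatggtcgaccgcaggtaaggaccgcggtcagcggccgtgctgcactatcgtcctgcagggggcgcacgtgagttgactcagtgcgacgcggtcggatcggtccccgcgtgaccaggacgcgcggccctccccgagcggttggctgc
The Sdha stretch held 3 NRF1 matches, beginning 98, 55 and 10 bases before the start, Cox6a1 held 2 (162 and 117 bases) and Atp5c1 held 1 (17 bases). Atp5c1 also has a window from another start (chr2:10080461-10080760, minus), which held none of the 3 motifs and is not printed. A gene with several windows was counted as holding a motif if any of them did. In the Ndufa4 and AA467197 stretches none of the 3 motifs was found, which says only that these letters are not in these windows.

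The members as a whole were lower with GAFCP by a small amount. Of 78 tested, 46 fell and 3 rose, at a limma adjusted p under 0.05 taken over all 13720 genes tested. Over all genes 28.5% fell and 19% rose. The median log2 change of the members was -0.16, against -0.07 for all genes tested. Both GAFCP libraries lay below all 4 control libraries for 53 members and above them for 5, where 36.9% and 24.7% of all genes tested did so. Members were abundant, with a median level of 200.7 TPM against 15.6 TPM for all genes tested, and varied little among controls (median coefficient of variation 3.95% against 6.89%). Summed over members, the controls held 24614, 26021, 26013 and 25279 TPM and the GAFCP libraries 22347 and 22411 TPM, or between 2.46% and 2.6% of all TPM against 2.23% and 2.24%. The GAFCP sum was 87.8% of the control sum, and the groups did not overlap.

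How many members were called turned on the scaling. With median-of-ratios scaling 25 fell and 5 rose (32.1% lower, against 24.9% of all genes), and the calls over all genes split 3460 higher to 3424 lower in place of 2606 to 3909. Without GAFCP library 2 the count of members that fell was 30 (38.5%, against 18.9% of all genes in that fit). In all of 18 fits (as reported, and with every alternative except the replicate block) 23 members stayed called lower and 2, Cycs and Ndufa12, stayed called higher. The same count was not made over all genes tested, so these counts have no background to be read against.

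Other cells' markers moved with the groups. All 10 macrophage markers were higher with GAFCP, their summed level going from 799.2 to 844.5 TPM in controls to 2947 TPM in both GAFCP libraries. All 8 pan-leukocyte markers were higher as well (102.4 to 121.1 TPM against 301.6 and 310.6 TPM), as were all 7 tested of the T and NK cell list (5.29 to 7.68 against 31 and 33.9 TPM) and 6 of 8 tested fibroblast markers (188.8 to 209.3 against 309.8 and 310.5 TPM). The epithelial markers stayed the most abundant, at 6667 to 7043 TPM in the control libraries and 5081 and 5112 TPM with GAFCP, with 4 of 8 lower and 1 higher. The adhesion marker Epcam, which had the lowest change of the 8, was 12.5 to 13.1 TPM in the control libraries and 1.68 and 1.39 TPM with GAFCP. The 3 that did not pass were Krt18, Cdh1 and Cldn7 (log2 changes -0.06, -0.10 and -0.59), and Cldn4 was the 1 that rose (0.57). Erythroid markers summed to 74.4 to 88.5 TPM in controls against 85.1 and 94.1 TPM. The part of these cells in the members' changes was not tested, and in bulk RNA fewer cells of a type and less RNA per cell cannot be told apart.

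**Figure D1:**
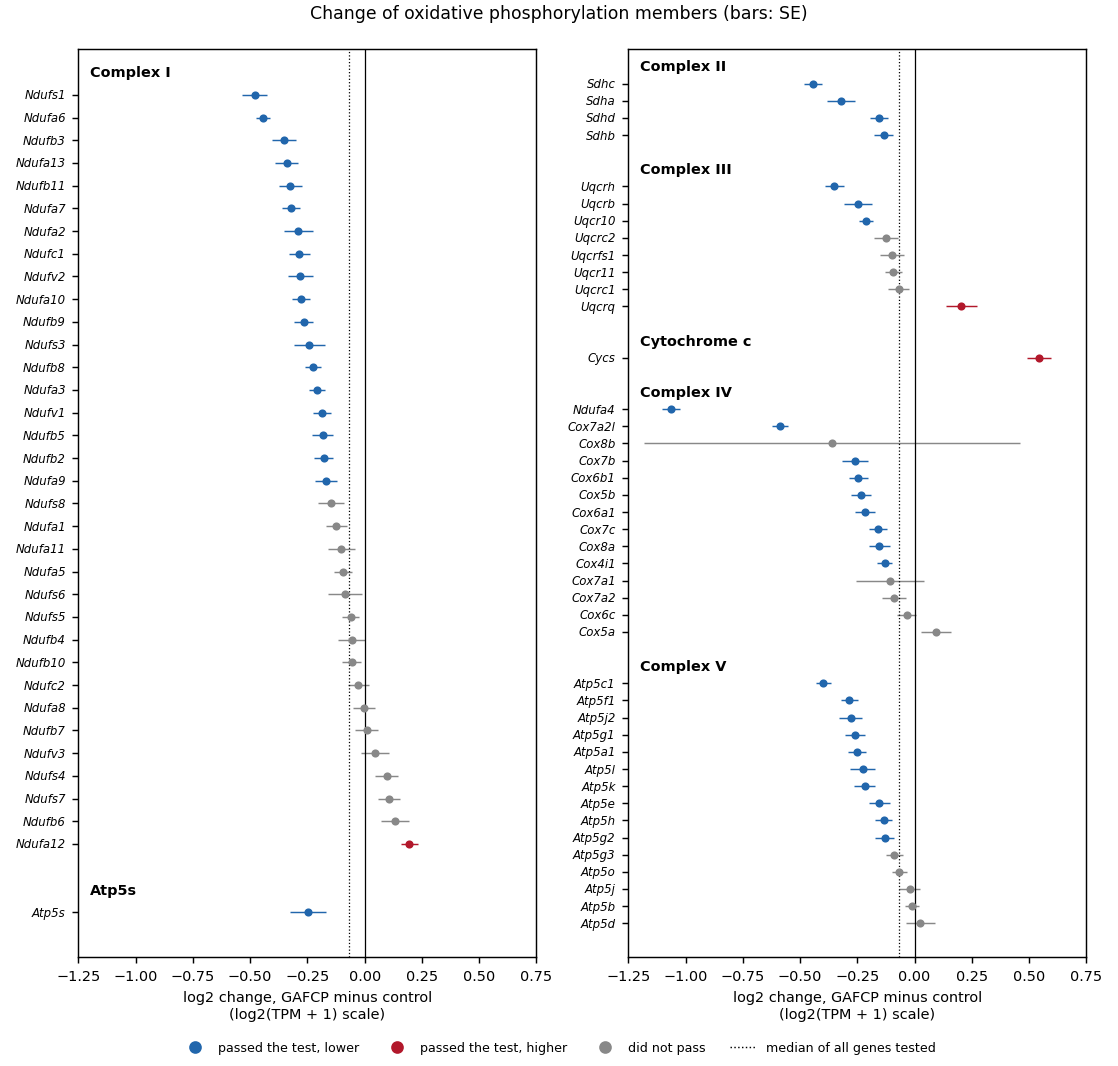
Log2 change (GAFCP minus control, log2(TPM + 1) scale) of the members reported, grouped by complex, with bars for the standard error and a dotted line at the median of all genes tested. Most points lie left of 0, Ndufa4 farthest at -1.06, and Cycs stands farthest right at 0.55.

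**Figure D2:**
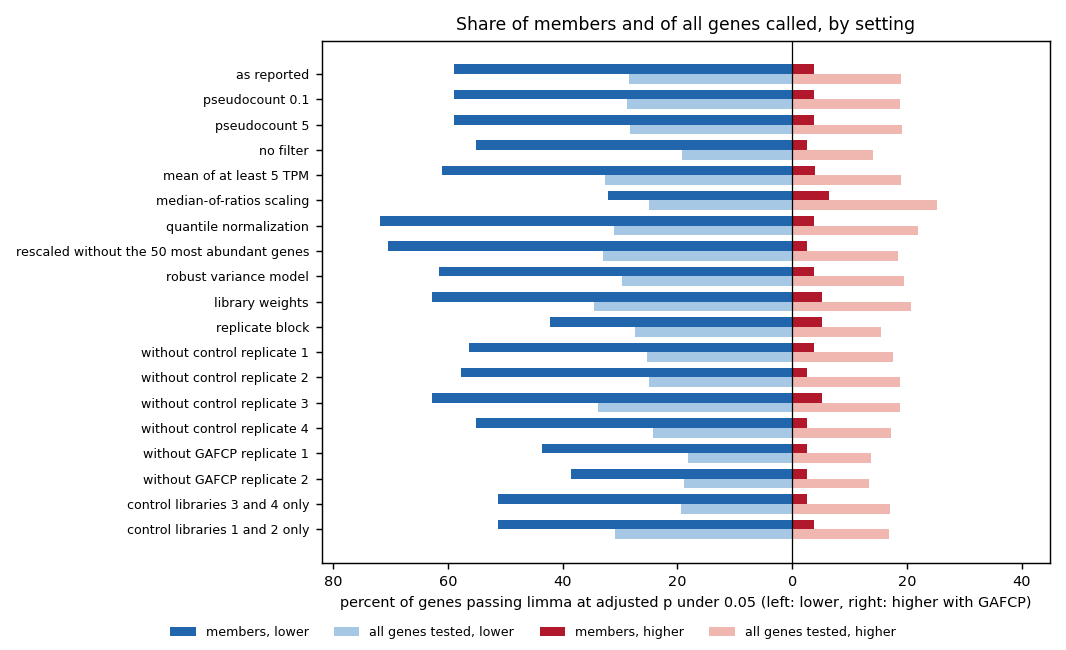
Percent of members and of all genes tested that passed limma, lower (left) or higher (right) with GAFCP, as reported and under each alternative. Members fell more often than all genes in every fit plotted, by the narrowest margin with median-of-ratios scaling (32.1% against 24.9%).

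The change that stood farthest from the rest was that of Ndufa4, a small subunit of cytochrome c oxidase that was once assigned to complex I. Ndufa4 (chromosome 6, 11900372 to 11907450, GRCm38.p6) was at 596.1, 644.5, 632.4 and 635.8 TPM in control libraries 1 to 4 and at 306.7 and 292.5 TPM with GAFCP. The groups lay far apart, the mean going from 627.2 ± 21.4 (SD, n = 4) to 299.6 ± 10.1 TPM (SD, n = 2), 47.8% of control. The log2 change was -1.06 ± 0.04 (SE; limma adjusted p = 6.3e-07), and 2.66% of all genes tested had a lower one. No other member changed by as much in either direction.

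AA467197, which is no member by its symbol, changed the other way. It encodes NMES1, a small mitochondrial protein of the same family as Ndufa4 that is known to take the place of Ndufa4 in complex IV of inflamed or activated cells. AA467197 (chromosome 2, 122637887 to 122641076) was at 119.2, 124.2, 124.9 and 121.2 TPM in the control libraries and at 625.7 and 609.1 TPM with GAFCP. The log2 change was 2.33 ± 0.03 (SE; limma adjusted p = 1.3e-08), and 99.3% of the genes tested had a lower one. In controls Ndufa4 was the more abundant of the pair, and with GAFCP AA467197 was. The quotient of AA467197 to Ndufa4 was 0.2, 0.193, 0.197 and 0.191 in controls and 2.04 and 2.08 with GAFCP, a difference of 3.39 on the log2 scale (TPM + 1 in both terms). An exact two-sided permutation test of the group means gave p = 0.0667, the smallest that 15 arrangements allow, and adjusted p = 0.2 over the 6 ratios tested. Together the pair made 715.3 to 768.7 TPM in the control libraries and 932.4 and 901.5 TPM with GAFCP. Mir147, the microRNA gene inside AA467197, was listed at 0 in all 6 libraries. That is a TPM from bulk RNA, and the mature microRNA was not measured. The other relative, Ndufa4l2, known from hypoxic cells, lay below the level limit, at 0.31, 1.15, 0.838 and 1.12 TPM in the control libraries and 0.412 and 1.45 TPM with GAFCP, groups that overlap. Macrophage markers were higher in the libraries where AA467197 was, and their part in its rise was not tested.

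**Figure D3:**
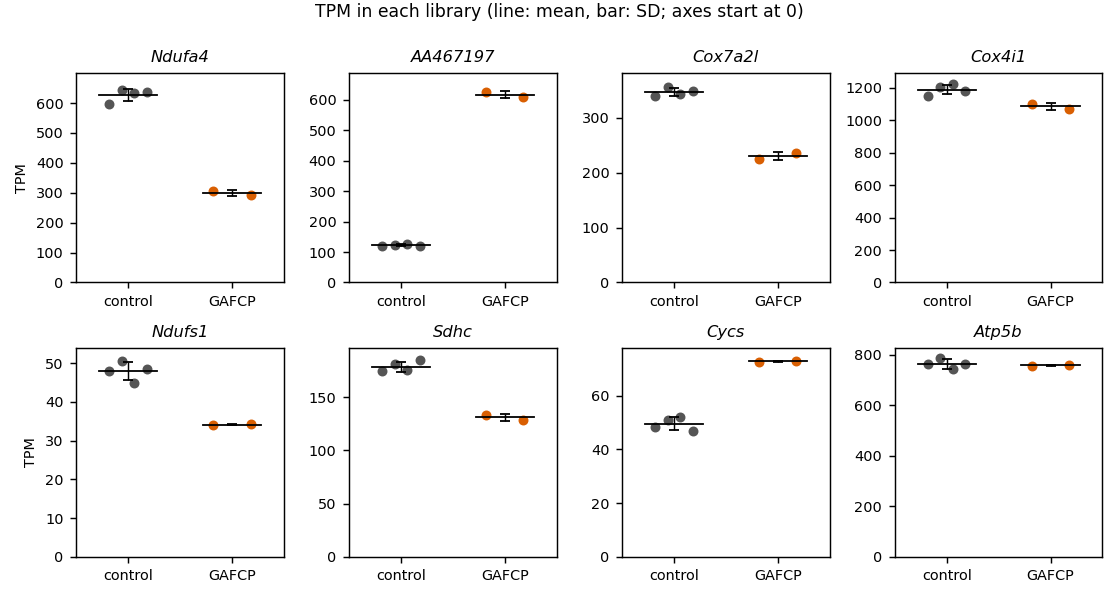
TPM in each library of 7 members and AA467197, with lines at group means and bars for the SD (4 control and 2 GAFCP libraries); axes start at 0. Ndufa4 and AA467197 trade places, Cox7a2l, Ndufs1 and Sdhc are lower with GAFCP, Cycs is higher, and Atp5b lies within the control range.

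In complex IV, Cox7a2l had the lowest change after Ndufa4. In all, 9 of 14 members of complex IV fell (64.3%) and 0 rose, by limma, beside 28.5% and 19% of all genes tested. Without Ndufa4 it was 8 of 13 (61.5%), with a median log2 change of -0.16. Cox7a2l, also called SCAF1, is known for joining complexes III and IV into supercomplexes, which was not measured here. It was at 339.3, 356.7, 343.2 and 348.5 TPM in the control libraries and 225.7 and 235.8 TPM with GAFCP, so the groups lie far apart (log2 change -0.59 ± 0.04, SE; limma adjusted p = 7.6e-06). The abundant subunits Cox6a1, Cox6b1 and Cox5b fell by 0.22, 0.25 and 0.24 on the log2 scale. Cox6a1, the most abundant member of all, had a control mean of 1660 ± 77.4 TPM and a GAFCP mean of 1428 ± 13.4 TPM (SD). Cox7b, Cox7c, Cox8a and Cox4i1 fell by 0.26, 0.16, 0.15 and 0.13. Cox4i1, Cox5b and Cox6a1 did not pass once scaled by median of ratios (limma adjusted p = 0.359, 0.0546 and 0.128), and Cox4i1 also failed when GAFCP library 1 or GAFCP library 2 was left out (0.0519 and 0.122). Cox5a (240.9 and 256.6 TPM), Cox6c (658.6 and 642.7 TPM) and Cox7a2 (153.5 and 144.1 TPM in the control libraries and with GAFCP) did not pass. Cox6c passed as lower with quantile normalization (log2 change -0.0999; limma adjusted p = 0.0248).

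Subunit forms of muscle, fat, lung or testis were scarce. Cox4i2, Cox6a2, Cox6b2, Cox7b2 and Cox8c averaged under 1 TPM, while the common forms Cox4i1, Cox6a1, Cox6b1, Cox7b and Cox8a averaged between 119.4 TPM (Cox7b) and 1582 TPM (Cox6a1). The muscle and brown fat form Cox7a1 was the exception, at 33.8, 28.2, 23.4 and 23 TPM in the control libraries and 26.4 and 23.3 TPM with GAFCP, and it did not pass (limma adjusted p = 0.579). Its value was highest in control libraries 1 and 2, where summed adipocyte markers were also highest (39.5 and 23.4 TPM, against 9.35 to 10.3 TPM in the other 4 libraries). In those libraries the adipocyte sum rested mostly on the most abundant gene of the list. Adipoq, Plin1, Plin4 and Ucp1, all at low levels, were also highest there, while Cidec, Lep and Retn did not follow that order. Skeletal muscle markers summed to 5.12 and 3.43 TPM in control libraries 1 and 2 and to 9.99 TPM or more elsewhere. Of that list Ckm was at 4.82 and 4.56 TPM in control libraries 3 and 4 and at 3.19 and 7.82 TPM with GAFCP, against 0.0627 and 0 TPM in control libraries 1 and 2. Acta1 rose from 1.45 to 3.39 TPM on average, and Myh4 was at 0 except in control library 2 (0.0128 TPM). Other genes of the list went the other way, at levels under 1 TPM. Tnnt3 (0.504 and 0.395 TPM) and Atp2a1 (0.363 and 0.278 TPM) were highest in control libraries 1 and 2, and Mb was highest in control library 1 (0.41 TPM). The muscle sum therefore followed mostly Ckm and Acta1. The part of muscle or fat cells in the Cox7a1 and Cox8b values was not tested. Cox8b, the other form of muscle and brown fat, read 9.64 TPM in control library 2 and 1.39 TPM or less in every other library. The ratios of scarce to common forms rest on values near 0, save that of Cox7a1 to Cox7a2, whose difference between groups was -0.02 (log2; exact two-sided permutation p = 0.933, adjusted p = 0.933).

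Complex I is the largest complex and the main entry of electrons from NADH. Of its 35 members 19 fell (54.3%) and 1 rose (2.86%), with a median log2 change of -0.18. Among all genes tested 28.5% fell and 19% rose. Among the 7 core subunits, which carry the flavin and the iron-sulfur clusters, 5 fell, and among the 28 accessory subunits 14 fell and 1 rose (medians -0.24 and -0.15). Ndufs1, the largest core subunit, was at 47.9, 50.6, 44.8 and 48.5 TPM in the control libraries and 33.9 and 34.2 TPM with GAFCP (log2 change -0.48 ± 0.06, SE; limma adjusted p = 2.6e-04). The groups did not overlap. Among other core subunits Ndufv2 fell by 0.28, Ndufs3 by 0.24 and the NADH-binding Ndufv1 by 0.19. Ndufs8 and Ndufs7 did not pass, with log2 changes of -0.15 and 0.11 (adjusted p = 0.0617 and 0.0964). Ndufs8 passed as lower with a filter at a mean of 5 TPM (adjusted p = 0.0494), quantile normalization (0.0238), rescaling without the 50 most abundant genes (0.0296), a robust variance model (0.0333) or GAFCP library 2 left out (0.0177, log2 change -0.239). Ndufs7 was above all controls in both GAFCP libraries and passed as higher with median-of-ratios scaling (adjusted p = 0.0453). Ndufs3 and Ndufv1 did not pass under that scaling (adjusted p = 0.0554 and 0.0517), nor did either when GAFCP library 2 was left out (0.0568 and 0.0732), and Ndufs3 also failed without GAFCP library 1 (0.141).

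Accessory subunits of complex I ranged from -0.44 to 0.19. Ndufa6 was lowest, at 317.5, 330.3, 318.6 and 324.8 TPM in the control libraries and 234.8 and 239.3 TPM with GAFCP (limma adjusted p = 2e-05). Ndufb3, Ndufa13, Ndufb11 and Ndufa7 fell by between 0.35 and 0.32, and Ndufa3, the most abundant complex I member, fell by 0.21 but not past the threshold with median-of-ratios scaling (adjusted p = 0.0726). Ndufa13, also called GRIM-19, is known as a cell death regulator too. Ndufa12 was the accessory subunit that rose, from 177.7 ± 4.95 (SD, n = 4) to 203.5 ± 3.38 TPM (SD, n = 2; log2 change 0.19 ± 0.04, SE; limma adjusted p = 0.0037). Its GAFCP values of 201.1 and 205.9 TPM lay above the highest control, 184.3 TPM. Ndufb6 was next in order at 0.13 and did not pass (adjusted p = 0.116), but passed as higher with library weights (0.0353) and when control library 3 was left out (0.0437).

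**Figure D4:**
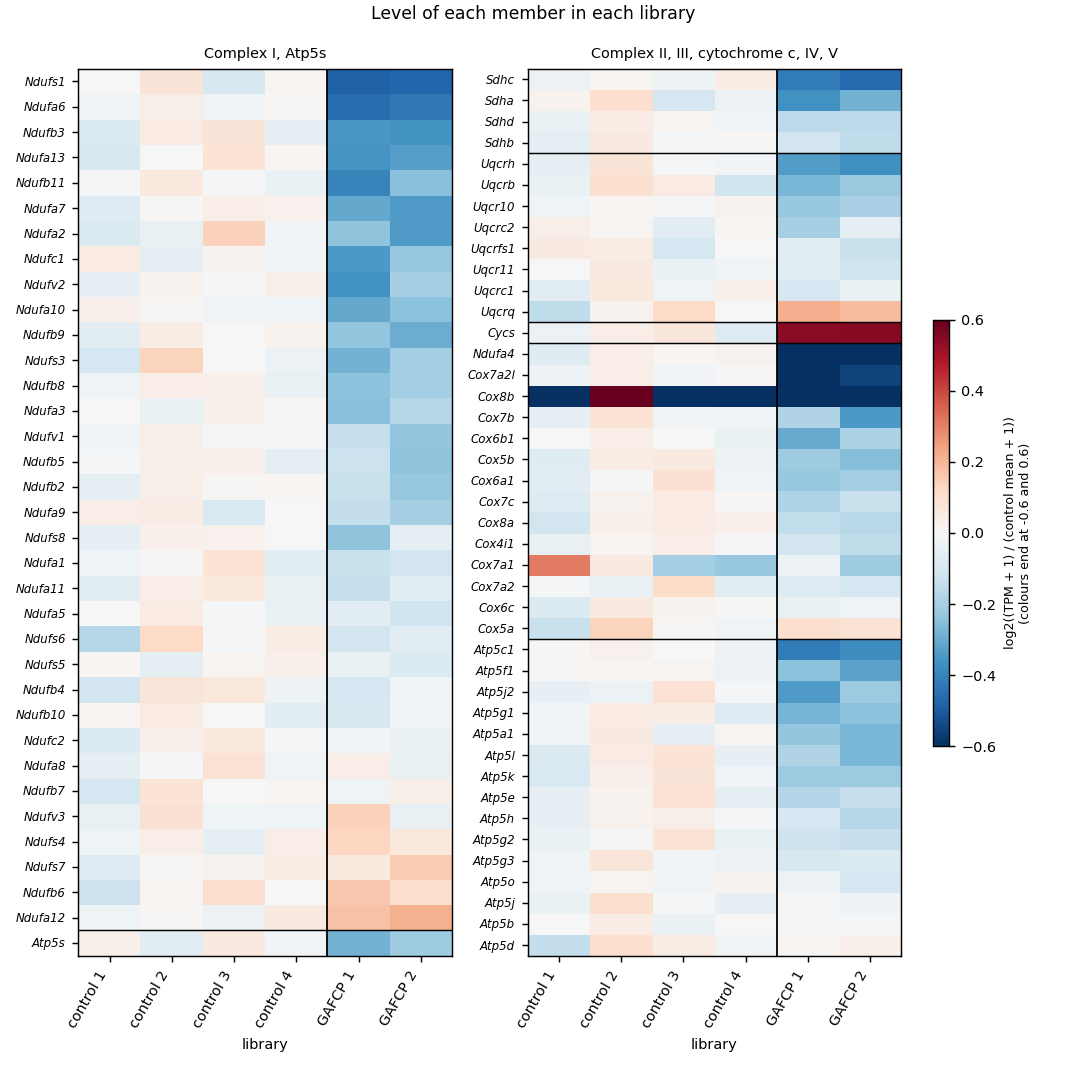
Level of the members reported in each library, as log2 of (TPM + 1) over the control mean plus 1, with black lines between complexes and between control and GAFCP libraries; colours end at -0.6 and 0.6. The GAFCP columns are mostly blue, Cycs, Ndufa12 and Uqcrq are red there, and Cox8b differs among the controls.

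All 4 succinate dehydrogenase genes of complex II, which links the citric acid cycle to the chain, fell, beside 28.5% of all genes tested. Sdhc, a membrane anchor that holds heme, was at 174.7, 181, 175.4 and 184.7 TPM in the control libraries and 133.5 and 129.1 TPM with GAFCP (log2 change -0.44 ± 0.04, SE; limma adjusted p = 5.4e-05). Sdha, the flavoprotein that oxidizes succinate, was at 88.7, 93.7, 81.4 and 85.3 TPM in the control libraries and 67.7 and 71.5 TPM with GAFCP (log2 change -0.32 ± 0.06, SE; adjusted p = 0.0033). Both pairs of ranges stood apart. The iron-sulfur subunit Sdhb fell by 0.13 and the anchor Sdhd by 0.16 (adjusted p = 0.027 and 0.0127). Neither Sdhb nor Sdhd passed once scaled by median of ratios (adjusted p = 0.218 and 0.139), without GAFCP library 1 (0.0877 and 0.0776) or without GAFCP library 2 (0.17 and 0.0795), and Sdhb also failed without control library 4 (0.0685). Sdhc lies on chromosome 1 at 171129157 to 171150640.

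Complex III was split between members, and its count moved with the settings (2 to 7 lower; 7 after rescaling without the 50 most abundant genes, 6 without control library 3). Of 8 members 3 fell (37.5%), 1 rose (12.5%) and 4 did not pass. With 8 members these shares lie near those of all genes tested (28.5% lower and 19% higher). Uqcrh, the hinge protein at the docking site of cytochrome c, was at 356.3, 390.8, 367.5 and 366.1 TPM in the control libraries and 292.8 and 286.8 TPM with GAFCP (log2 change -0.35 ± 0.04, SE; limma adjusted p = 3.0e-04). Uqcr10 and Uqcrb fell by 0.21 and 0.25, and Uqcrb did not pass when GAFCP library 1 was left out (adjusted p = 0.092) or with median-of-ratios scaling (0.0664). Uqcrq, a small subunit beside cytochrome b, was higher, at 96.5, 109.1, 116.7 and 107.7 TPM in the control libraries and 125.2 and 122.4 TPM with GAFCP (log2 change 0.21 ± 0.07, SE; adjusted p = 0.0417). That call was lost without GAFCP library 1 (adjusted p = 0.191), without GAFCP library 2 (0.133), without control library 2 (0.0608) or control library 4 (0.0733), and with no filter (0.071), quantile normalization (0.0851) or rescaling without the 50 most abundant genes (0.0727). The Rieske iron-sulfur protein Uqcrfs1 (log2 change -0.10), the core proteins Uqcrc1 (-0.07) and Uqcrc2 (-0.13) and Uqcr11 (-0.09) did not pass as reported. Uqcrfs1, Uqcrc2 and Uqcr11 passed as lower without control library 3 (adjusted p = 0.0201, 0.045 and 0.0439), and all 4 passed after rescaling without the 50 most abundant genes (Uqcrfs1 0.0456, Uqcrc1 0.0448, Uqcrc2 0.03 and Uqcr11 0.0066). Cyc1, the heme subunit of complex III that the symbol rule leaves out, was 204.6 ± 9.9 TPM in the control libraries and 193.9 ± 3.83 TPM with GAFCP (SD) and did not pass.

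Cycs, the mobile carrier between complexes III and IV and also a trigger of apoptosis when released, was the member that rose most. It was at 48.3, 51.1, 52 and 47 TPM in the control libraries and 72.7 and 72.9 TPM with GAFCP, a gap far wider than the spread within either group. The log2 change was 0.55 ± 0.05 (SE; limma adjusted p = 9.3e-05), and Cycs (chromosome 6, 50562563 to 50566569) stayed called in each of the 18 fits.

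ATP synthase, complex V, was lower in 10 of 15 members (66.7%) and higher in 0, with a median log2 change of -0.15. Among all genes tested 28.5% were lower and 19% higher. In the catalytic F1 head 3 of 5 fell. Atp5c1, the rotating central shaft, was lowest at 209.8, 212.3, 209 and 204 TPM in the control libraries and 156.1 and 160.3 TPM with GAFCP (log2 change -0.40 ± 0.03, SE; limma adjusted p = 4.8e-05). The alpha subunit Atp5a1 fell by 0.25 and the epsilon subunit Atp5e by 0.15. The catalytic beta subunit Atp5b did not pass, at 761.9, 786.9, 742.6 and 762.9 TPM in the control libraries and 756.4 and 758.8 TPM with GAFCP (log2 change -0.01 ± 0.03, SE; adjusted p = 0.795), its GAFCP values lying within the control range. With quantile normalization Atp5b passed as lower (log2 change -0.167; limma adjusted p = 9.6e-04). Atp5d did not pass either (0.03 ± 0.06, SE; adjusted p = 0.766). Of the 3 genes for the same c-ring protein, Atp5g1 fell by 0.26 and Atp5g2 by 0.13, and Atp5g3 did not pass. In the peripheral stalk 2 of 4 fell, among them Atp5f1 (220.1 ± 3.57 TPM in the control libraries and 180.5 ± 6.69 TPM with GAFCP, SD). The 3 other membrane subunits, Atp5j2, Atp5k and Atp5l, all fell, Atp5k from 1125 ± 57.2 to 966.6 ± 1.08 TPM (SD). With median-of-ratios scaling 4 members of complex V fell, and without GAFCP library 2 it was 5. Atp5k did not pass with that scaling (adjusted p = 0.116) or when GAFCP library 1 or GAFCP library 2 was left out (0.0505 and 0.0519). Atp5s, at 6.35 TPM on average, fell by 0.25 (adjusted p = 0.03). That call was lost without control library 1 or control library 4 (adjusted p = 0.0697 and 0.0675). It was lost too with median-of-ratios scaling (0.0852), no filter (0.0559) or quantile normalization (0.0534). Nor did Atp5s pass with the replicate block or with either pair of control libraries. Without GAFCP library 1 or GAFCP library 2 its log2 change was -0.21 or -0.284, short of the threshold in both fits.

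Summed TPM was lower with GAFCP for each complex. The GAFCP sum was 83% of the control sum for complex II, 85.4% for complex IV (88.5% without Ndufa4), 88.3% for complex I, 89.2% for complex III and 89.6% for complex V, with no overlap between groups for any of these sums. The levels themselves were far apart: the median member stood at 491.2 TPM in complex IV, 442.1 in complex V, 194 in complex III, 156.4 in complex I and 131 in complex II, averaged over the 6 libraries. No test was made between complexes.

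Factors that assemble the complexes were followed in the same way. Of 55 tested assembly factors, from 5 lists, 20 fell and 2 rose, with a median log2 change of -0.09. That is 36.4% lower, beside 28.5% and a median of -0.07 for all genes tested. Complex IV assembly had 9 lower and 2 higher of 25. Cox20, a chaperone of the Cox2 subunit, was at 85.7, 89.7, 89 and 105.9 TPM in the control libraries and 51.5 and 40.8 TPM with GAFCP (log2 change -0.99 ± 0.11, SE; limma adjusted p = 2.1e-04), and Cox19 and Surf1 fell by 0.58 and 0.48. Cox17, the copper chaperone, and Higd1a, a hypoxia-induced partner of complex IV, were the 2 that rose, by 0.39 and 0.57. Complex I assembly had 4 lower of 16 (Acad9 by 0.28, Ndufaf7 by 0.39, Ndufaf8 by 0.28, lost without GAFCP library 1 at adjusted p = 0.0502, and Tmem126b by 0.41), complex II 1 of 4 (Sdhaf4 by 0.60), and complex III 3 of 5 (Uqcc3 by 0.48, Bcs1l by 0.48 and Uqcc1 by 0.31). In complex V assembly 3 of 5 fell, led by Atpif1, which encodes the inhibitor of ATP hydrolysis by the synthase. Atpif1 was at 156.3, 161.7, 159.9 and 158.1 TPM in the control libraries and 103.2 and 101.1 TPM with GAFCP (log2 change -0.63 ± 0.03, SE; limma adjusted p = 4.0e-06).

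Regulators of mitochondrial biogenesis mostly did not pass. Of 14 tested 4 fell and 0 rose, by limma, a share of 28.6% that is practically that of all genes tested (28.5%). These were Tfb2m, which starts mitochondrial transcription, by 0.59, Polg2 by 0.45, the DNA helicase Twnk by 0.37 and Ssbp1 by 0.32. Nrf1 and Yy1, whose motifs were searched, had log2 changes of -0.04 and -0.01 and Gabpa of -0.19, and none of these passed. The coactivator Ppargc1a was under 1 TPM in every library (0.643 to 0.973 in controls, 0.246 and 0.21 with GAFCP) and was not tested. In the citric acid cycle list 7 of 16 fell (43.8%) and 1 rose, with a median of -0.12. Fumarase Fh1 fell by 0.42, the pyruvate dehydrogenase subunits Pdhb and Pdha1 by 0.40 and 0.34, and citrate synthase Cs rose by 0.17.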

How the data were processed

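The authors deposited 1 table of TPM per gene symbol for 6 libraries, made with Salmon and mm10 per the submitters' processing notes; tool versions and annotation: not given in the sources used here. Since every library sums to 1 total in TPM, a rise of abundant genes lowers all others, and depth is lost. Titles gave the groups.

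The test was that of limma 3.58.1 (R 4.3.3) on log2(TPM + 1) for the 13720 genes that reached 1 TPM in 2 or more libraries (trend, empirical Bayes, 4 residual degrees of freedom), p-values being adjusted over all of them by Benjamini-Hochberg. The pseudocount of 1 understates changes of low genes. The fit was also run on simulated data, with noise for both groups drawn from the spread of the controls. That run checked the code and vouches for no call given here. Isoform ratios used an exact permutation test. The labels do not say whether same-numbered libraries were paired, and the main fit used no pairing. Same-numbered libraries' deviations from their group means correlated at -0.00727 and -0.0195. These values cannot decide the question, since the deviations of 2 GAFCP libraries from their mean mirror each other. Alternatives changed the pseudocount, filter, scaling, variance model, block and libraries used. Positions and promoters come from RefSeq on GRCm38.p6, the assembly called mm10; 76 of 78 members had a position.

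Members and lists were chosen with earlier results of these data known. The genes named were every member of complexes II and III, Cycs, the complex I core, the complex IV isoform pairs and Ndufa4 relatives, and per complex the 4 smallest p among called members, the 2 highest and 2 lowest changes and the most abundant; pathway lists gave 3 called genes each. Genes outside that rule were added with values in view, among them Ndufb3, Ndufa13, Ndufb11, Mir147, Tmem126b, Cox17, Higd1a, Cs, Polg2 and Ppargc1a. TPM allows no count model. A member and a marker are not reported here by name, though counts, medians and sums include them.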

Additional observations from a re-analysis of the deposited data

Results flagged for a closer look

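In 4 of 87 sets of control values examined (members, AA467197 and the sums by complex), 1 control library stood apart, its gap to the nearest other control divided by the range of the 4 controls being over Dixon's critical value; chance does this in about 1 of 20 sets. For Cox8a the gap was 0.876 of the range, control library 1 being lowest at 957.8 TPM and the others at 1054 to 1068 TPM. For Ndufv1 it was 0.876, with control library 2 highest at 146.7 TPM and the others at 141.6 to 142.2 TPM. For Ndufv3 it was 0.856, with control library 2 highest at 190.8 TPM and the others at 173.2 to 175.7 TPM. For Cox8b, a form of muscle and brown fat, it was 0.856, with control library 2 at 9.64 TPM and the others at 0 to 1.39 TPM.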

How the results depend on the processing

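Median-of-ratios scaling changed the member counts most, to 25 lower and 5 higher from 46 and 3, and the median log2 change of members to -0.10 from -0.16 and of all genes to -0.00728 from -0.07; the cause was not tested. The member median was -0.22 with quantile normalization and -0.19 after rescaling without the 50 most abundant genes. Leaving out each library in turn gave 30 to 49 members lower and, over all genes, 2486 to 4638 lower. The lowest counts came without a GAFCP library, where the lone GAFCP library is assumed to vary as the controls do. With the replicate number as a block, which leaves control libraries 3 and 4 without weight and 1 residual degree of freedom, 33 members were lower and 4 higher. In that fit 42.3% of members were lower, beside 27.4% of all genes tested, and 2128 of 13720 genes were higher. By the labels, same-numbered libraries share no more than the number. With control libraries 3 and 4 only, and with control libraries 1 and 2 only, choices made after seeing the data, 40 members (51.3%) were lower. The share of all genes tested that was lower differed, at 19.4% with control libraries 3 and 4 and 30.8% with control libraries 1 and 2.

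Some genes that did not pass, Ndufa4l2 below the level limit among them, changed sign. Atp5b went from -0.01 to 0.0531 with median-of-ratios scaling and 0.00933 with control libraries 3 and 4 only, and from -0.0243 to 0.00351 when each library was left out, and it was -0.167 and past the threshold with quantile normalization. Atp5d went from 0.03 to -0.0329 with quantile normalization and -0.00199 with rescaling, and from -0.021 to 0.0595 when each library was left out. Cox6c went from -0.0342 to 0.02997 with median-of-ratios scaling and to -0.0999, past the threshold, with quantile normalization. Cox7a1 went from -0.11 to 0.0894 with control libraries 3 and 4 only, and to -0.307, past the threshold, with the replicate block (limma adjusted p = 0.019). Ndufa4l2 went from 0.03 to -0.0861 with control libraries 3 and 4 only, and from -0.367 to 0.429 when each library was left out. Of the ratios, Cox7a1 to Cox7a2 ranged from -0.119 to 0.0916 when each library was left out, with the sign turned without control library 1, control library 2 or GAFCP library 2. With a pseudocount of 0.1 Cox4i2 to Cox4i1 differed by 0.81 (0.37 as reported) and Cox6b2 to Cox6b1 by 0.90 (0.38), genes under 1 TPM. Unknown depth means that no counting error could be given.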
